A study of Mus musculus with 34 samples.

Results

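The genes for the subunits of RNA polymerase II (Pol II) were examined through H3K4me3, the trimethyl mark on lysine 4 of histone H3, at their promoters. The genes Polr2a to Polr2j were taken by name, which gave 10 of the 21938 protein-coding genes of GENCODE M21 on mm10, and the value of each was the mean H3K4me3 signal within 1000 bp on either side of the gene 5′ end. The mark was profiled by CUT&RUN, in which an antibody tethers protein A-micrococcal nuclease to unfixed nuclei and the DNA cut loose is sequenced. Villus cells had been scraped from normal-appearing small intestine of C57BL/6J wild-type mice and of ApcMin/+ mice, which carry 1 truncated copy of the tumor suppressor Apc in every cell. There were 2 libraries per genotype, from mice of 5 weeks by the sample labels (the methods of the study give a different age, 1 week older). The labels give no other allele and no treatment. In such bulk material, fewer cells of a type and less of the mark per cell cannot be told apart.

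Pol II transcribes the protein-coding genes of the nucleus. Polr2a and Polr2b encode the catalytic pair, Rpb1 with its long C-terminal repeat domain (CTD) and Rpb2. Polr2c and Polr2j encode the Rpb3 and Rpb11 heterodimer on which the enzyme is assembled. Polr2d and Polr2g encode the Rpb4 and Rpb7 stalk, Polr2i encodes Rpb9, which acts in start site selection and proofreading, and Polr2e, Polr2f and Polr2h encode subunits that Pol I and Pol III also carry. H3K4me3 is found on the nucleosomes around the start sites of transcribed genes, and genes needed in every cell usually carry it at promoters rich in CpG dinucleotides.

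Promoter sequences of 300 bp, from 250 bp before to 50 bp after the annotated start, were matched in RefSeq (GRCm38.p6) for 8 of the 10 genes, all but Polr2d and Polr2g. Of the 8, 5 are shown because the results turn on them: Polr2a (mark mostly upstream), Polr2b (highest level), Polr2c and Polr2e (low level) and Polr2j (highest genotype difference). They lie at chr11:69758584-69758883 on the minus strand for Polr2a, chr5:77310234-77310533 on the plus strand for Polr2b, chr8:94857200-94857499 on the plus strand for Polr2c, chr10:80039610-80039909 on the minus strand for Polr2e and chr5:136116441-136116740 on the plus strand for Polr2j. Each reads 5′ to 3′ along the gene, and capitals mark matches on either strand to the motifs GGGCGG (the GC box), CCGGAA (the ETS core), CCAAT (bound by NF-Y), TATAAA (the TATA box), CACGTG (the E-box) and TCGCGAGA (a motif of housekeeping promoters).
Polr2a: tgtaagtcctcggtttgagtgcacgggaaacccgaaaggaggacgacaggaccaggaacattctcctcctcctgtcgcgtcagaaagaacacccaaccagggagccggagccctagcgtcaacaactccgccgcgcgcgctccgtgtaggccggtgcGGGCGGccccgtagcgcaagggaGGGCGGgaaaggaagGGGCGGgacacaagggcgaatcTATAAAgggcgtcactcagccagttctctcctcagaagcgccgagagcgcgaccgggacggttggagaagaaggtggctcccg
Polr2b: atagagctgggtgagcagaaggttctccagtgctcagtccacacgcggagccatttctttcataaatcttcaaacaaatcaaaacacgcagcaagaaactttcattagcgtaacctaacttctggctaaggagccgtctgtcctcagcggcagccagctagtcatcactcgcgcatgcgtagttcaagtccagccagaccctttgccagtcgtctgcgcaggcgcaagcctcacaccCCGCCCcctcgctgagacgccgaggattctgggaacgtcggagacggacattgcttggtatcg
Polr2c: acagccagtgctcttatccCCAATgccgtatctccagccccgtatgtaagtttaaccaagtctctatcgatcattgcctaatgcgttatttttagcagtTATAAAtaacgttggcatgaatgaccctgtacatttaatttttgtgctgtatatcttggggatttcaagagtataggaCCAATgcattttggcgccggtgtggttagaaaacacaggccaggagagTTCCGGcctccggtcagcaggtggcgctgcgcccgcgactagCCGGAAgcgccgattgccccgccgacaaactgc
Polr2e: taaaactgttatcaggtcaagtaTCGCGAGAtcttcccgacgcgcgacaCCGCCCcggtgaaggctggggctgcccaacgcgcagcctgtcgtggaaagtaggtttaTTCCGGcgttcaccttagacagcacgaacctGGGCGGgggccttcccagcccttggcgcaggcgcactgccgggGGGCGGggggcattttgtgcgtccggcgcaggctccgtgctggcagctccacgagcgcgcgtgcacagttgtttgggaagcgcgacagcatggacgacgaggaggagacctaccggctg
Polr2j: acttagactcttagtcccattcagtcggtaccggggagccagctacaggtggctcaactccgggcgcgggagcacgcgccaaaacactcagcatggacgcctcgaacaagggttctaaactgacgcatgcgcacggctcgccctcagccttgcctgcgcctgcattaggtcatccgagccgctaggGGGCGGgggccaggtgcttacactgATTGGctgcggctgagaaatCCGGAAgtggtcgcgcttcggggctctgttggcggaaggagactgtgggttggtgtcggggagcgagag

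The G+C content of the promoters, taking the first RefSeq start where there was more than 1, was highest in Polr2h, 66.3%, and was above the median of 32851 RefSeq promoters of the same length, 52.7%, in all but Polr2c. Polr2c held 18 CpG dinucleotides and Polr2e held 32, against a median of 7 over all promoters. A GC box was found in 6 of the 8 promoters and in 35.7% of all promoters, and the ETS core in 4 of the 8 (Polr2c, Polr2e, Polr2f and Polr2j) and in 14.9% of all. CCAAT was found in 3 of the 8 (Polr2c, Polr2i and Polr2j) and in 37.4% of all. TATAAA was found in Polr2a, at bases -33 to -28 from the start, and in Polr2c, at bases -151 to -146, and in 13.6% of all promoters. TCGCGAGA occurred in Polr2e (0.995% of all promoters) and the E-box in Polr2h (7.15%). None of the 26 matches overlapped a match to another motif, and a match describes the letters only.

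The 4 libraries differed in depth and enrichment before any gene is considered. Depth was 1430000 to 5470000 tags, lowest in wild-type replicate 1. In that library the median promoter of those tested rested on 13 fragments, against 29 to 98 in the others. ApcMin/+ replicate 1 stood apart, with 43.3% of its signal in 55851 enriched regions (at least 5 times the genome mean) against 11.9% to 22.6% in the others. The regions were called on the mean of the 4 tracks, in which this library weighs most, so that its larger share is partly set by that choice. Of the enterocyte markers, 12 of the 13 found passed the filter on low signal (a mean of 2 or more over the 4 libraries), as did 3 of 6 crypt and stem cell markers and 0 of 27 markers of secretory cells, mesenchyme, immune cells and endothelium. The summed signal of the enterocyte markers was 79.5 and 48.7 in the wild-type and 230 and 62.0 in the ApcMin/+ libraries (replicates 1 and 2), highest in the same library. The summed signal of the crypt and stem cell markers was 9.98 and 6.65 in the wild-type and 37.4 and 10.7 in the ApcMin/+ libraries, and 1 gene, Rnf43, held 22.7 of the 37.4. The defining stem cell genes Lgr5, Olfm4 and Ascl2 did not pass the filter, with at most 1.63 in any library. Of 8 genes listed as silent in this tissue, 1 (Mbp) passed the filter, with a mean signal of 9.52. The part of these differences in the results was not tested.

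All 10 Pol II subunit promoters had signal above the background in every library. Their lowest signal in each library was 6.15 to 31.3 times the background outside enriched regions, and their median percentile among the 21938 promoters was 81.0 and 85.7 in the wild-type and 89.5 and 85.8 in the ApcMin/+ libraries. The lowest percentile of any of the 10 in any library was 61.2. The libraries without antibody were not used, so cutting that does not depend on the antibody was not measured. All 10 were among the 9930 promoters that passed the filter and were tested. The signal is coverage per base in windows of equal length, and levels are set side by side between genes on that basis. A window can also take in the signal of a neighbouring gene's start, and how readily each window is cut or aligned was not measured.

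Of the catalytic pair, Polr2b stood high in every library, whereas Polr2a varied more between libraries. Polr2a, the largest subunit and the one that carries the CTD, had a signal of 7.001 and 3.19 in the wild-type and 21.7 and 5.18 in the ApcMin/+ libraries, from 20, 31, 161 and 57 fragments. Polr2b had 9.02 and 5.20 in the wild-type and 24.1 and 6.21 in the ApcMin/+ libraries, from 26, 50, 179 and 68 fragments. At both genes ApcMin/+ replicate 1 was far above the other libraries, ApcMin/+ replicate 2 lay between the wild-type replicates, and the genotypes overlapped. Averaged over the 4 libraries Polr2b was the highest of the 10, at the 95.4 percentile, and Polr2a was at the 90.4 percentile. By library, the percentile of Polr2a was 90.5 and 78.9 in the wild-type and 92.0 and 86.4 in the ApcMin/+ libraries. In wild-type replicate 2 its signal of 3.19 lay close to the 3.06 of the median tested promoter.

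The genes of the assembly heterodimer differed from each other. Polr2c had 3.14 and 3.55 in the wild-type and 8.25 and 3.29 in the ApcMin/+ libraries, from 9, 34, 61 and 36 fragments. Polr2j had 4.32 and 3.22 in the wild-type and 16.8 and 6.79 in the ApcMin/+ libraries, from 12, 31, 124 and 74 fragments. At Polr2c the genotypes overlapped, whereas at Polr2j both ApcMin/+ libraries lay above both wild-type libraries. The exact Poisson interval (95%, counting error only) of Polr2j was 5.31 to 8.49 in ApcMin/+ replicate 2, beside 2.17 to 7.32 and 2.20 to 4.60 in the wild-type replicates, so that it overlapped 1 of the 2.

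The stalk genes showed a similar split in level. Polr2d had 5.23 and 4.08 in the wild-type and 20.95 and 5.05 in the ApcMin/+ libraries. Polr2g had 2.57 and 1.98 in the wild-type and 6.62 and 2.92 in the ApcMin/+ libraries, from 7, 19, 49 and 32 fragments. Polr2g was the lowest of the 10 by its mean, at the 62.2 percentile, and both of its ApcMin/+ libraries lay above both wild-type libraries, whereas at Polr2d the genotypes overlapped. Its interval was 2.0 to 4.13 in ApcMin/+ replicate 2 and 0.983 to 5.04 in wild-type replicate 1, so that this order was within counting error. Polr2i, the Rpb9 gene, had 8.54 and 4.84 in the wild-type and 21.3 and 7.08 in the ApcMin/+ libraries, with overlap, and stood at the 93.9 percentile.

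Among the genes for subunits that all 3 nuclear polymerases use, Polr2h was high and Polr2e low. Polr2e had 3.21 and 2.82 in the wild-type and 6.20 and 2.76 in the ApcMin/+ libraries. Polr2f had 4.88 and 4.09 in the wild-type and 18.6 and 4.61 in the ApcMin/+ libraries. Polr2h had 9.14 and 4.75 in the wild-type and 21.4 and 5.78 in the ApcMin/+ libraries. At all 3 genes the genotypes overlapped, and at Polr2e ApcMin/+ replicate 2 was the lowest of the 4 libraries. That value came from 30 fragments, with a Poisson interval of 1.85 to 3.91. In wild-type replicate 2 the interval was 1.86 to 4.10, from 27 fragments, so that this order was within counting error.

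**Figure D1:**
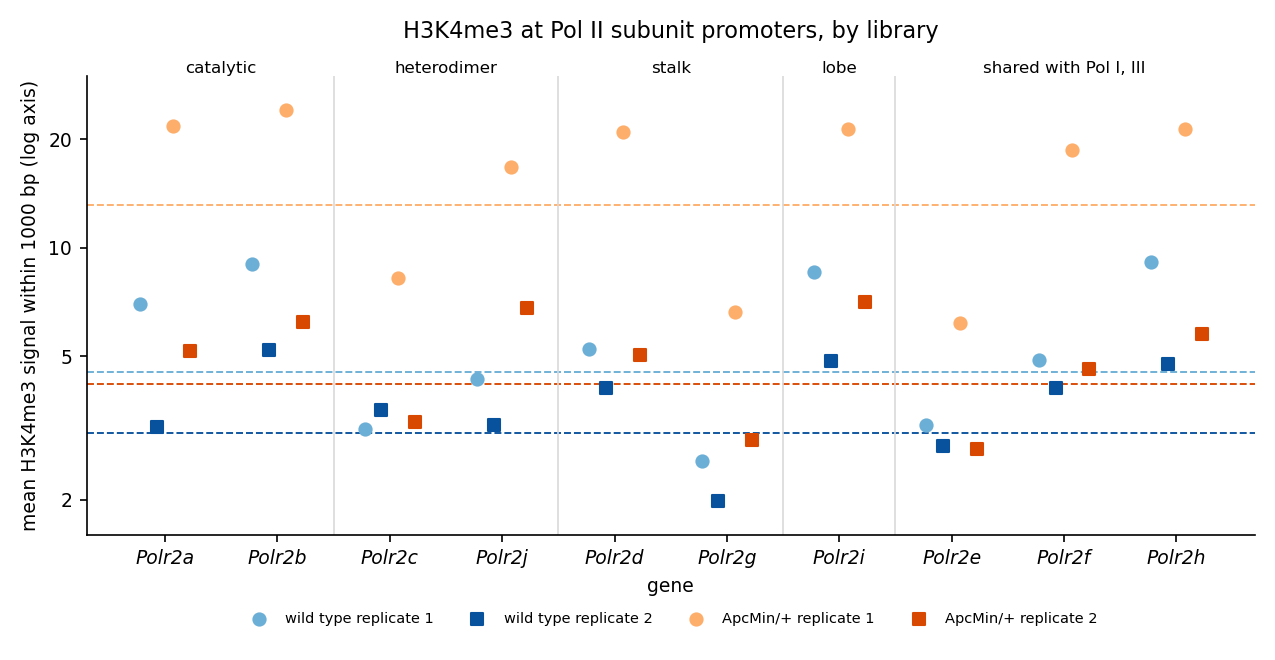
Mean H3K4me3 signal within 1000 bp of the 5′ end (log axis) of each Pol II subunit gene, 1 point per library, with a dashed line at the median of the 9930 tested promoters in each library. ApcMin/+ replicate 1 lies above the other 3 libraries at all 10 genes, and Polr2c, Polr2e and Polr2g lie below that library's median promoter.

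By the mean of the 4 libraries the order was Polr2b, Polr2i, Polr2h, Polr2a, Polr2d, Polr2f, Polr2j, Polr2c, Polr2e and Polr2g, from a signal of 11.1 down to 3.52. Of the 9 neighbouring pairs in this order, 0 kept it in all 4 libraries, so neighbours did not differ beyond the spread between libraries. The 3 at the lower end, Polr2c, Polr2e and Polr2g, were grouped after their values were seen, and the grouping is a description. In ApcMin/+ replicate 1 they had 6.20 to 8.25 against 16.8 to 24.1 for the other 7. Polr2b, Polr2i, Polr2h, Polr2d and Polr2f were above each of the 3 in every library, whereas Polr2a and Polr2j were below Polr2c in wild-type replicate 2.

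**Figure D2:**
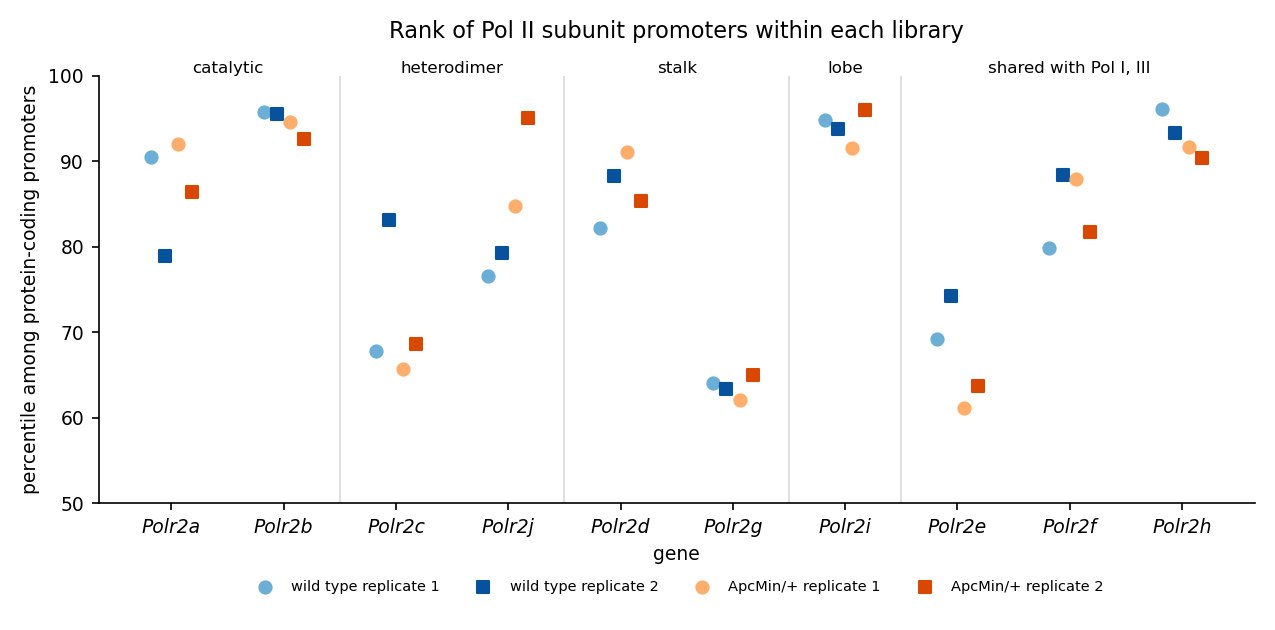
Percentile of each Pol II subunit promoter among the 21938 protein-coding promoters (axis from 50 to 100), ranked separately within each library, 1 point per library. Polr2b, Polr2h and Polr2i stay between 90.4 and 96.2 in every library, and Polr2c, Polr2e and Polr2g between 61.2 and 83.1.

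The study profiled H3K4me3 to compare its occupancy over start sites between genotypes, and the same comparison was made at these promoters. None of the 10 Pol II subunit promoters passed an adjusted p of 0.05 (limma on log2(signal + 1), Benjamini-Hochberg over the 9930 promoters), beside 0% of all promoters tested. The number at an unadjusted p under 0.05 was 0 of 10, and 132 of the 9930. Adjusted p values of the 10 ran from 0.683 to 0.707. With ApcMin/+ replicate 1 raised at nearly all promoters, the SE of the 10 was 0.77 to 1.24 on the log2 scale, so that these p values do not show that the genotypes were alike. For a single value, an exact two-sided permutation test of 2 libraries against 2 cannot give a p below 0.333.

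The log2 difference (ApcMin/+ minus wild type, on the log2(signal + 1) scale) was positive at all 10, beside 99.2% of all tested promoters, and its median was 0.81 over the 10 and 0.85 over all tested. Without the filter on low signal, which ApcMin/+ replicate 1 weighs on most, the median over the 21938 promoters was 0.35. The differences are therefore given beside the value over all tested promoters. Polr2j had the highest difference, 1.31 (SE 1.12, limma adjusted p = 0.683), followed by Polr2d at 1.04 (SE 1.16) and Polr2a at 1.03 (SE 1.17). Polr2e had the lowest, 0.38 (SE 0.82, limma adjusted p = 0.707), and Polr2c the next, 0.54 (SE 0.90). The remaining genes, Polr2b, Polr2f, Polr2g, Polr2h and Polr2i, had 0.69 to 0.94. In signal, the wild-type mean of Polr2j was 3.77 ± 0.777 (SD, n = 2) and its ApcMin/+ mean 11.8 ± 7.04 (SD, n = 2). Those of Polr2e were 3.02 ± 0.281 (SD, n = 2) and 4.48 ± 2.43 (SD, n = 2). Both ApcMin/+ libraries lay above both wild-type libraries at 2 of the 10 promoters (Polr2g and Polr2j), against 38.5% of all tested promoters, and below them at 0 of the 10, against 0.161%. Over the 21938 promoters without the filter these shares were 26.0% and 7.17%. Set against the wild-type library of the same number, the ApcMin/+ library was higher in both pairs at 8 of the 10 (all but Polr2c and Polr2e), against 86.8% of all tested promoters. The labels do not say whether a shared number marks a shared run. With wild-type replicate 1 left out the count above was 8 of the 10, against 87.5% of all, and with ApcMin/+ replicate 2 left out it was 10 of the 10, against 98.9%. With wild-type replicate 2 left out the count above was 3 of the 10, against 41.7%. With ApcMin/+ replicate 1 left out it was 2 of the 10, against 38.6%, and 1 was below, against 9.11%.

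With each library centred on its median tested promoter, the median difference was -0.04 over the 10 and -0.01 over all. The difference was positive at 4 of the 10, beside 4849 of the 9930 tested promoters. Polr2j was then at 0.46 and Polr2e at -0.48. None of the 10 was called (limma adjusted p 1.00 at each), beside 0.121% of all tested promoters. After centring, both ApcMin/+ libraries lay above both wild-type libraries at 1 of the 10 (Polr2j), against 13.1% of all, and below at 1 (Polr2e), against 14.3%. By percentile within the library, which needs no scaling, they lay above at 1 of the 10 (Polr2j), against 15.7% of all, and below at 3 (Polr2b, Polr2e and Polr2h), against 15.1%. The percentile of Polr2j was 76.6 and 79.2 in the wild-type and 84.7 and 95.0 in the ApcMin/+ libraries, and that of Polr2e was 69.2 and 74.2 in the wild-type and 61.2 and 63.7 in the ApcMin/+ libraries.

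**Figure D3:**
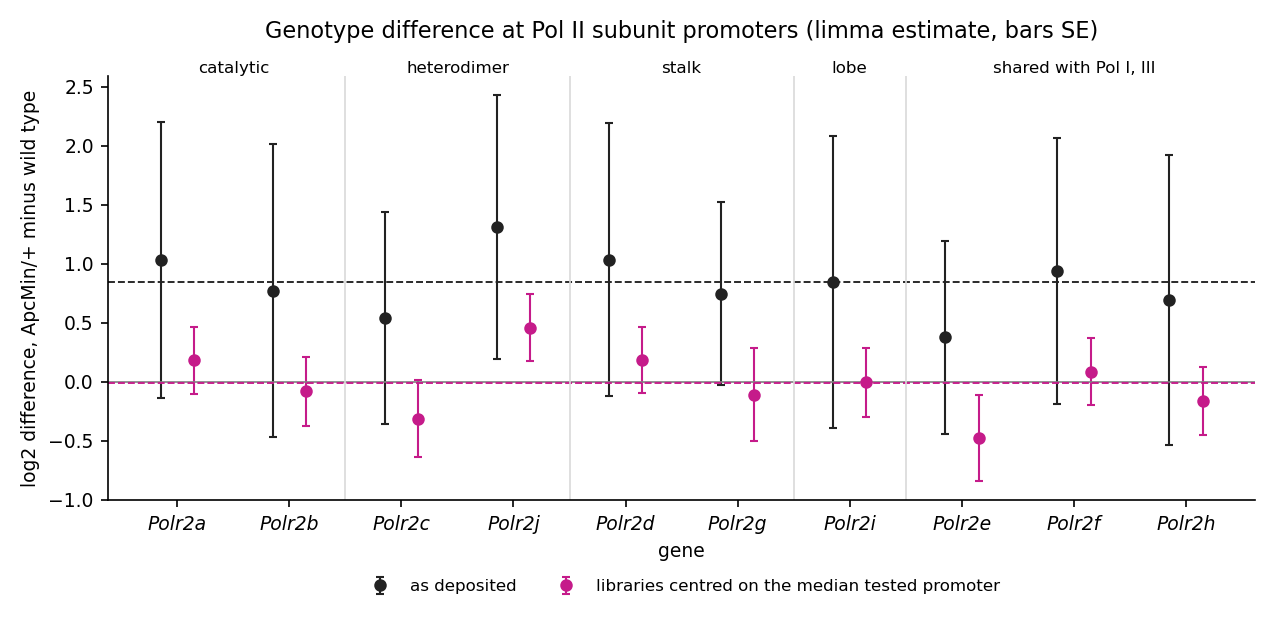
Log2 difference in H3K4me3 signal (ApcMin/+ minus wild type, limma estimate, bars 1 SE) at each Pol II subunit promoter, for the deposited scale (black) and with libraries centred on the median tested promoter (magenta), and dashed lines at the median of all tested promoters on each scale. The 10 genes lie between 0.38 and 1.31 on the deposited scale and between -0.48 and 0.46 after centring.

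The differences changed in size and direction with ApcMin/+ replicate 1. Its signal was 2.24 to 4.19 times that of ApcMin/+ replicate 2 at the 10 promoters, beside a median of 3.16 over all tested promoters. The ratio was lowest at Polr2e (2.24), Polr2g (2.27), Polr2j (2.47) and Polr2c (2.50). Without ApcMin/+ replicate 1 the differences ran from -0.17 (Polr2h) to 0.72 (Polr2j), and 4 of the 10 were negative. Their median was 0.07, beside 0.13 over all tested promoters. Without ApcMin/+ replicate 2 the differences ran from 0.84 to 1.97 and 6 of the 10 were called higher (Polr2a, Polr2c, Polr2d, Polr2f, Polr2g and Polr2j), beside 65.2% of all tested promoters. In these fits the lone library of a group is assumed to vary like the other group. Of the 10, Polr2j alone had a difference that stayed positive in every fit that left out a library, centred or not, at 0.33 to 1.91. It was singled out as the highest of the 10 after its values were seen. The share of all tested promoters that stayed positive in every such fit was not counted, and the fits share libraries. The steady sign of Polr2j is therefore a description and no support for a difference.

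The mark was placed differently around the 5′ ends of the 10 genes. Over the 4 libraries the share of the signal within 1000 bp that fell downstream was 90.8% at Polr2c, 87.3% at Polr2g, 85.4% at Polr2j and 81.8% at Polr2f, and 31.0% at Polr2a and 33.0% at Polr2h. Over all tested promoters the median share was 68.2%, and Polr2a and Polr2h stood at the 6.57 and 7.77 percentiles of it. At Polr2a the downstream share was 23.3% and 24.9% in the wild-type and 31.8% and 42.2% in the ApcMin/+ libraries, so that most of the signal was upstream in each. At Polr2h it was 21.5% and 38.1% in the wild-type and 33.3% and 46.5% in the ApcMin/+ libraries. The 20-bp bin with the highest signal was at the same place in every library at Polr2j, where it began 160 bp downstream of the 5′ end. At Polr2g it began 260 to 360 bp downstream and at Polr2b 120 to 300 bp downstream. At Polr2a it was upstream in every library but moved, beginning at -500 and -280 bp in the wild-type and -300 and -60 bp in the ApcMin/+ libraries. At Polr2h it was at -280 and -380 bp in the wild-type and -380 and -1680 bp in the ApcMin/+ libraries. Averaged over all 21938 genes and the 4 libraries, the bin began 120 bp downstream. The RefSeq starts of the printed promoters lie 0 to 337 bp downstream of the GENCODE 5′ ends used for these distances.

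**Figure D4:**
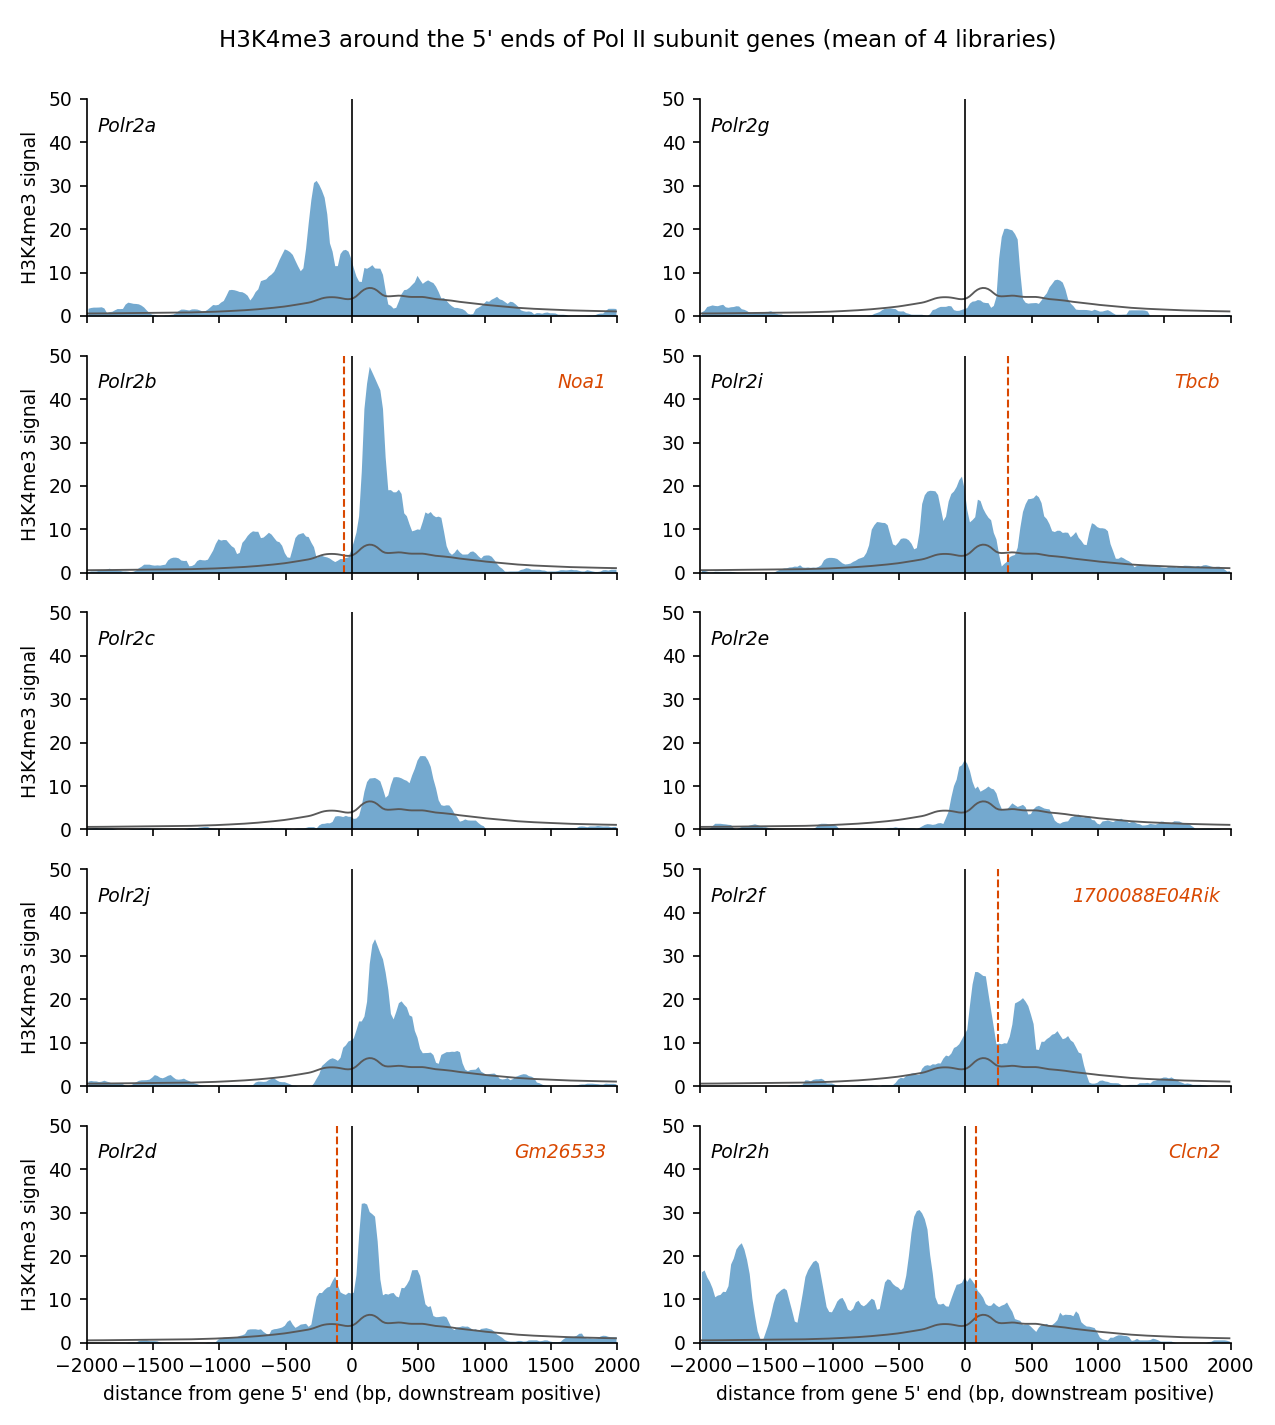
H3K4me3 signal (mean of the 4 libraries, 20-bp bins, blue) against distance from the 5′ end of each Pol II subunit gene, with the average over 21938 genes in grey and the 5′ end of a neighbouring gene as an orange dashed line. ApcMin/+ replicate 1 has the highest signal and weighs most in the mean. The signal is mostly upstream at Polr2a and Polr2h and mostly downstream at Polr2c, Polr2g and Polr2j.

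Each of the 10 windows held a single enriched region. Its length was 1100 bp at Polr2c and Polr2g, 1400 bp at Polr2e and Polr2f, 1600 bp at Polr2j, 2400 bp at Polr2i, 2500 bp at Polr2b, 2600 bp at Polr2d, 3200 bp at Polr2a and 7100 bp at Polr2h, beside a median of 2000 bp over all tested promoters. The 3 genes with the lowest signal had regions shorter than this median, as had Polr2f and Polr2j. Regions were called at a fixed level of the same mean signal, so that length and signal are not independent. The region of Polr2h reached 6064 bp upstream of its 5′ end, over the body of Clcn2, a chloride channel gene on the opposite strand. The region of Polr2a reached 1963 bp upstream, overlapped Slc35g3, and held no 5′ end of another annotated gene.

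The 5′ end of another gene lay in 5 of the 10 windows, beside 35.7% of all tested promoters. Noa1 starts 63 bp upstream of Polr2b on the opposite strand, and the antisense gene Gm26533 starts 114 bp upstream of Polr2d. Tbcb, a tubulin-folding cofactor, starts 324 bp downstream of the Polr2i 5′ end on the opposite strand, 1700088E04Rik 244 bp downstream of that of Polr2f, and Clcn2 81 bp downstream of that of Polr2h, so that these gene pairs overlap at their starts. The windows of such a pair share most of their bases, and the signal of the pair cannot be told apart. Noa1, for example, had 9.06 and 5.28 in the wild-type and 24.1 and 6.41 in the ApcMin/+ libraries. The 5 genes with such a neighbour had mean signals of 8.06 to 11.1 and the 5 without (Polr2a, Polr2c, Polr2e, Polr2g and Polr2j) 3.52 to 9.28. Over all tested promoters the median was 7.70 with and 5.64 without a neighbouring 5′ end.

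Taking the annotated start with the highest signal in place of the gene 5′ end changed the level little. Each of the 10 genes had 2 to 7 annotated transcript starts, and the start with the highest mean signal lay 0 to 357 bp downstream of the gene 5′ end. Its signal was 1.00 to 1.03 times that at the gene 5′ end, which by this choice it could not fall below. The 2 windows also share most of their bases. Starts further downstream could be lower, with a mean signal of 0.55 at 16066 bp downstream in Polr2a and 6.72 at 984 bp in Polr2i.

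Polr2k and Polr2l, small subunits shared with Pol I and Pol III, and Polr2m, which encodes the Pol II partner Gdown1, were read beside the 10. Polr2k had 1.39 and 3.34 in the wild-type and 20.6 and 4.23 in the ApcMin/+ libraries, Polr2l had 4.53 and 3.26, and 14.03 and 3.74, and Polr2m had 1.05 and 3.25, and 12.5 and 2.65. At Polr2k both ApcMin/+ libraries were above both wild-type libraries, but the value in wild-type replicate 1 came from 4 fragments, and at Polr2m from 3. The log2 differences were 1.72 (SE 0.97), 0.80 (SE 1.02) and 1.25 (SE 0.81), with limma adjusted p = 0.683 at each.

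Promoters of the wider Pol II machinery were read in 5 lists, all with differences above 0 on the deposited scale. None was called in any list (limma adjusted p at least 0.683), nor after centring, and at an unadjusted p under 0.05 there was 1 Mediator promoter (Med24), 1 of Pol I and Pol III (Crcp) and 0 in the other 3 lists. Without ApcMin/+ replicate 2 the number called was 5 of 10, 26 of 31, 18 of 28, 14 of 31 and 12 of 18 in the order of the lists below, beside the 65.2% given above. The median log2 difference was 0.78 over 10 genes for the assembly and nuclear import of Pol II, with both ApcMin/+ libraries above both wild-type libraries at 6, beside the 38.5% of all tested promoters. It was 0.93 over 31 general transcription factor genes (17 above), 0.94 over 28 Mediator genes (10 above), 0.78 over 31 genes for pausing, elongation and CTD enzymes (11 above) and 0.95 over 18 subunits of Pol I and Pol III (12 above). The median over all tested promoters was 0.85. These counts cover only the promoters that passed the filter.

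The lowest and highest differences in each list were those of Pdrg1 (0.10) and Slc7a6os (1.06) for assembly, Taf10 (0.17) and Taf2 (1.36) for the general factors, Med12 (0.23) and Med24 (1.78) for Mediator, Ell2 (0.44) and Ctr9 (1.43) for elongation and Polr1b (0.53) and Crcp (1.51) for Pol I and Pol III. Med24, a subunit of the Mediator tail, had a signal of 0.349 and 1.04 in the wild-type and 7.71 and 2.74 in the ApcMin/+ libraries, from 1, 10, 57 and 30 fragments. Its ApcMin/+ libraries were above its wild-type libraries, the lower of which rested on 1 fragment. Crcp, a Pol III subunit, had 1.05 and 1.25 in the wild-type and 8.92 and 2.74 in the ApcMin/+ libraries. At both genes the wild-type values were below the filter of 2, so that they were tested only because the ApcMin/+ values were high, and a higher value in ApcMin/+ is no support for a difference. Taf10, a TFIID subunit, had 4.77 and 2.76 in the wild-type and 6.61 and 2.62 in the ApcMin/+ libraries, and its genotypes overlapped.

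**Figure D5:**
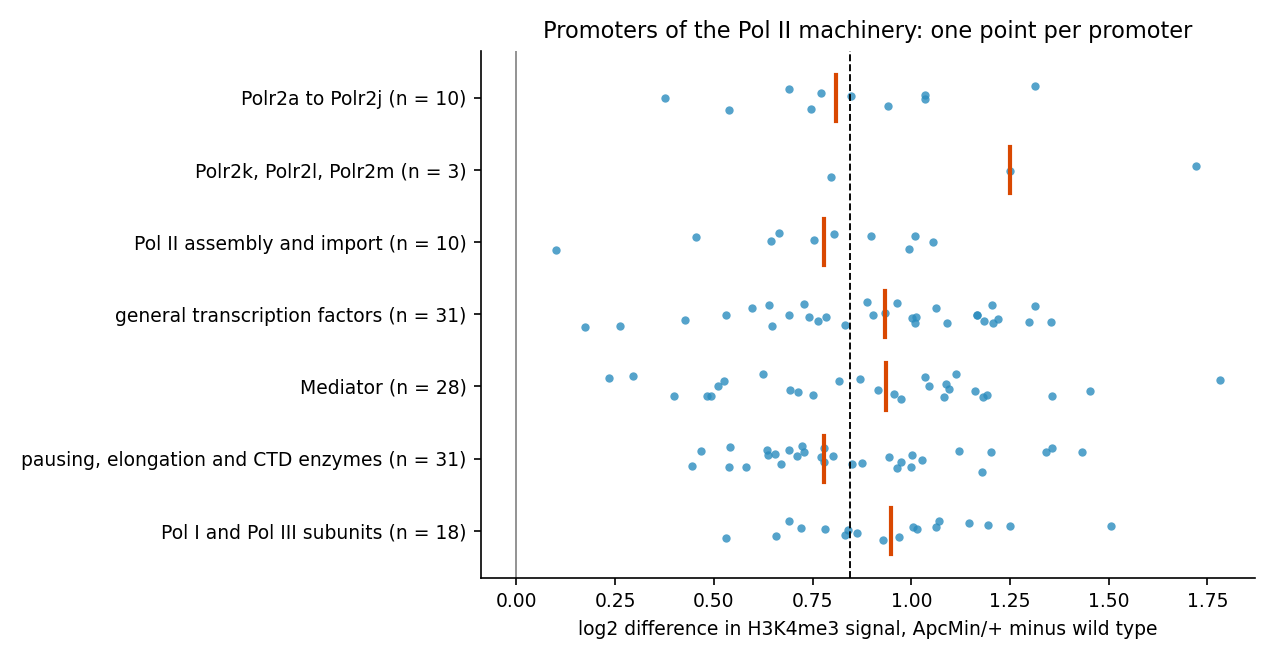
Log2 difference in H3K4me3 signal (ApcMin/+ minus wild type) of each tested promoter of the Pol II machinery, 1 point per promoter and 1 row per list, with the list median in orange and the median of all tested promoters (0.85) as a dashed line. The medians of the 5 lists of the wider machinery lie between 0.78 and 0.95, and no point is below 0. The rows of Polr2a to Polr2j and of Polr2k, Polr2l and Polr2m have medians of 0.81 and 1.25.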

How the data were processed

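H3K4me3 CUT&RUN of the 4 libraries was analysed. The other libraries of the series were not used here. Per the study's methods, the authors trimmed read pairs with Novocraft, aligned them to mm10 with Bowtie2, removed duplicates with Picard and reads with a MAPQ under 10, and kept fragments of 150 to 500 bp. The deposited signal is HOMER coverage at each base, which the authors normalised to 10000000 tags and to fragment length. The summed signal of a window over the signal of 1 tag in that track gave its number of fragments. Because the tracks are scaled, no count model was used.

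Signal was averaged within 1000 bp of each gene 5′ end, and promoters with a mean of at least 2 over the 4 libraries were tested with limma 3.58.1 (trend, log2(signal + 1), R 4.3.3), a script first tested on simulated data. Background was the mean signal outside enriched regions and more than 5000 bp from any gene 5′ end. Enriched regions were called on the mean of the 4 tracks in 100-bp bins, joined over gaps of 500 bp, with at least 300 bp. The genes, lists and tests were chosen with earlier results of these data known. The genes named were Polr2a to Polr2m, neighbours starting within 1000 bp, and the lowest and highest promoter of each list. Med24, Crcp and Taf10 were given in full after their values were seen. Motifs were searched in the RefSeq promoter table. P-values measure the spread between the libraries of 2 mice per genotype.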

Additional observations from a re-analysis of the deposited data

How the results depend on the processing

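The number of promoters called by limma, 0 of 9930, was 12 with centring, 2 with quantile normalization and 1 with the replicate block, in which none of the 10 Pol II subunit promoters was called (adjusted p 0.533 to 0.625). The labels do not say that a replicate number marks a shared run, and with 2 pairs the pairing was not settled by the data (correlation of the deviations of same-numbered libraries across promoters 0.196). Leaving out 1 library gave 0 to 6479 called promoters, the highest without ApcMin/+ replicate 2, and 0 to 6 called subunit promoters. The median difference over the 10 was then 0.07 to 1.63, and -0.06 to 0.05 with centring as well. Subunit promoters with groups that do not overlap, 2 as reported, numbered 4 with quantile normalization (1 higher, 3 lower, beside 14.8% and 15.98% of all promoters), 1 with a window of 2000 bp (beside 40.1% higher), and 1 with a minimum mean of 5 (beside 31.995% higher), which removed Polr2g, Polr2e and Polr2c. Leaving out 1 library, centred or not, gave 3 to 10, with fewer libraries to overlap. In these fits 28.8% to 98.9% of all tested promoters were higher without overlap, and 0.181% to 34.8% were lower.

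Centring turned the log2 difference to -0.082 at Polr2b, -0.31 at Polr2c, -0.48 at Polr2e, -0.11 at Polr2g, -0.16 at Polr2h and -0.0053 at Polr2i. Quantile normalization gave -0.11, -0.32, -0.44, -0.026, -0.19 and -0.019 at these genes. Leaving out 1 library, centred or not, gave -0.064 to 1.97 at Polr2a, -0.26 to 1.67 at Polr2b, -0.61 to 1.09 at Polr2c, -0.021 to 1.97 at Polr2d, -0.74 to 0.84 at Polr2e, -0.091 to 1.84 at Polr2f, -0.36 to 1.22 at Polr2g, -0.35 to 1.55 at Polr2h and -0.14 to 1.58 at Polr2i. Scaling to background, RefSeq or strongest starts, windows, filters and pseudocounts turned no subunit difference and called none. Depth limits wild-type replicate 1 most, where these promoters held 7 to 26 fragments.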
